A study of Rattus norvegicus with 16 samples.

Results

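The stretches of the rat genome described here were sparse in read CpGs and highly methylated in the amygdala at postnatal day 7 (P7). Each was a window of 1 kb (1000 bp) on chromosomes 1 to 20 of the build Rnor_6.0. A window belonged to the group if at most 16 distinct CpGs were listed in it by any of 10 libraries, and if its mean methylation in the 4 high-fat P7 libraries was at least 80%. These limits took in 40536 of 86065 windows (47.1%), with 185459 of 485690 tested sites. Because the members were selected on the high-fat P7 levels, those levels, and the difference between the diets at P7 that contains them, are given below as a description without a test. The minimum of reads and the count of CpGs used all 10 libraries. The change with age in offspring of control-fed dams used none of the libraries that set the methylation limit, and it is the comparison that was tested. Its P7 side shares age and tissue with the values that chose the members, and a window at 80% or more has little room to rise, so the balance of falls and rises is not a finding about these windows.

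The animals were female offspring of Long-Evans rats in 4 groups of 4 libraries, 16 in all, and no genotype beyond the strain is labelled. The control P7 and control P90 groups came from dams on control diet and were taken at postnatal days 7 and 90. The high-fat P7 and high-fat P90 groups came from dams that ate a high-fat diet starting 4 weeks ahead of pregnancy and continuing while they carried and nursed the pups. The pups of these dams ate none of it directly, and animals of the P90 groups were weaned to control diet. The amygdala was cut from frozen sections over stretches of the brain that did not overlap between the ages, so age and the stretch sampled cannot be told apart. Whether each library had an animal or litter of its own is not in the labels, so the spread between these libraries may be technical. The p-values rest mostly on such a spread shared over windows of like coverage and level. The labelled tissue was not checked here, since no gene markers were measured.

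In mammals most methylated cytosines lie in CpG pairs. Methylated cytosine mutates readily, so that most of the genome has few CpGs and nearly all of those left are methylated, while dense CpG islands at many promoters stay free of methylation. Maintenance methyltransferase copies the mark at cell division, other methyltransferases add it anew, and TET enzymes oxidise it to hydroxymethylcytosine, which is plentiful in neurons and which bisulfite reads as methylated. Loss of methylation at CpG-poor sites away from promoters is known from distal regulatory elements as cell types mature. Reduced representation bisulfite sequencing reads the ends of fragments cut at a short motif that contains a CpG, so a window is seen only where such fragments lie. In bulk tissue a lower level can come from fewer cells of a highly methylated type or from less methylation per cell, and these cannot be told apart.

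Of the 16 libraries, 10 listed 1796735 to 2188584 CpG sites with 22087054 to 63677193 reads, and these 10 set the members. They comprised every P7 library, 8 in number, with control P90 replicates 1 and 2. The other 6, control P90 replicates 3 and 4 and all 4 high-fat P90 libraries, carry a sequencing lane in their titles, listed 214222 to 752866 sites, and stand apart in their values (below). They were left out of the test, so the age comparison set 2 control P90 libraries against 4 control P7 libraries. As a check for a library deposited more than once, the mean chi-square per site was 1.15 to 1.34 over 13 pairs of replicates, where independent reads of 1 library would give about 1, and no pair stood apart from the rest.

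The members were defined by few listed CpGs, with a median of 9 and a range of 2 to 16. Windows above the limit with the same methylation, 12524 in all, had a median of 22. In a member, 3 to 16 sites (median 4) were read at least 10 times in all 10 libraries and so tested, and they spanned a median of 123 bp of the 1000. The count of CpGs is one of listed CpGs, which depends on how much of a window was read. How many CpGs the sequence holds was not analysed here. The limits cut through a continuous range. The 2 members just inside the methylation limit, chr8:46166001-46167000 and chr2:237981001-237982000, and the 2 windows just outside it, chr13:20261001-20262000 and chr2:261762001-261763000, all had a high-fat P7 level that rounds to 80%. Among windows at 80% or more, chr1:2279001-2280000 (82.8% in high-fat P7) and chr1:2721001-2722000 (85.5%) held 16 listed CpGs and were members, while chr1:1946001-1947000 (88.9%) and chr1:2954001-2955000 (90.0%) held 17 and were not.

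Across the 10 libraries the members stayed highly methylated. Mean methylation over the members was 90.3% ± 0.394 (SD, n = 4) in control P7, 90.2% ± 0.552 (SD, n = 4) in high-fat P7 and 89.8% ± 0.0778 (SD, n = 2) in control P90, and the median member had 90.5% to 91.7% in each library. The lower tail differed more than the middle. Members under 80% numbered 1436 to 2783 (3.54% to 6.87%) per control P7 library, 855 to 2870 (2.11% to 7.08%) per high-fat P7 library, and 3385 and 3445 (8.35% and 8.50%) in the control P90 libraries. Both control P90 libraries thus had more members under 80% than any of the 4 control P7 libraries, as the plot of levels by library shows in its lower lines. The high-fat P7 counts are held down by the rule and are no measure against P90. Control P7 shares age and tissue with the values that set the limit, so its counts are not free of the choice either. The excess under 80% at P90 is therefore a description of members chosen at P7. The median member was covered by 90 to 258 reads per library.

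**Figure D1:**
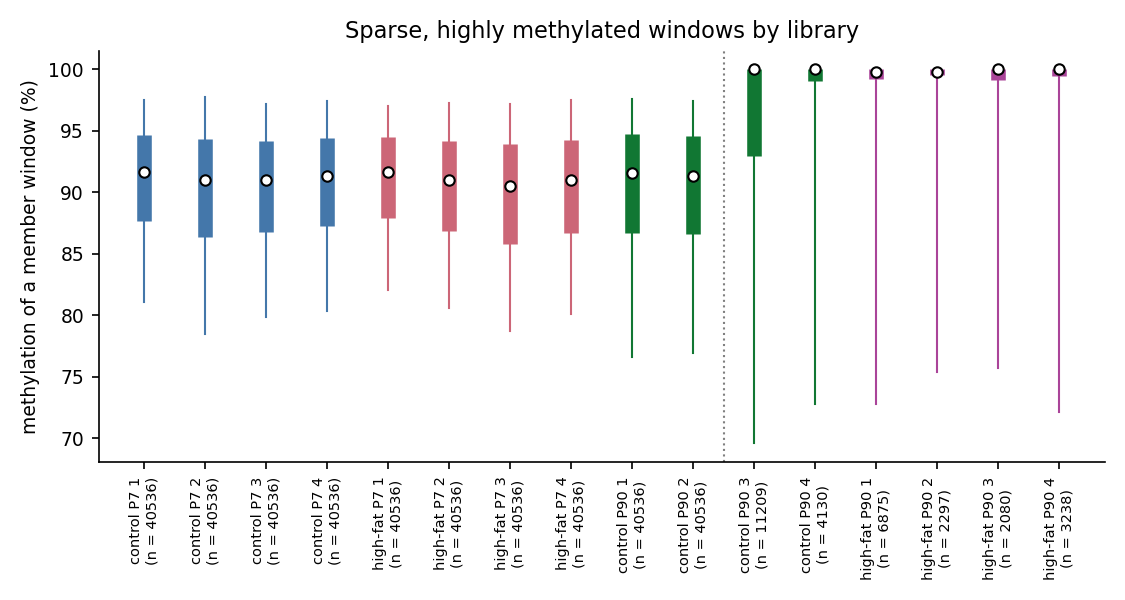
Methylation (%) of the member windows in each of the 16 libraries. The circle is the median, the thick bar the middle 50% of members and the thin line the 5th to 95th percentile, n is the number of members read, and the dotted line sets the 6 lane-titled libraries apart. Medians lie at 90.5% to 91.7% in the first 10 libraries and at 99.8% to 100% in the other 6, and the lower lines of control P90 1 and 2 reach below those of the control P7 libraries.

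Control P7 libraries agreed closely at most members. The SD over the 4 libraries had a median of 2.55 points and a 90th percentile of 5.15 points, and it exceeded 10 points in 0.481% of members. Over all windows the median SD was 3.00 points, and in windows with as few CpGs but a level under 80% it was 4.75 points. Members and windows under 80% differed in level by construction. In windows above the CpG limit at 80% or more the median SD was 1.94 points, below that of the members. Close agreement was thus not particular to the members. The windows above the CpG limit were also read more deeply.

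Within a member, sites were mostly alike, which the methylation limit favours, since a mean of 80% or more leaves few sites low. The same values are not given here for other windows. In control P7 the range between the sites of a window had a median of 9.61 points, and all sites were at or above 80% in 29016 members (71.6%). Of the member sites, 62.8% stood at or above 90%. Exceptions were few. A site under 50% occurred in 223 members (0.550%), and the largest range between sites of a window was 84.9 points. Sites whose SD over the 4 control P7 libraries exceeded 20 points numbered 517 and lay in 477 members (1.18%). The strands matched. Of the CpGs in members, 23641 were read on both strands, and the strands differed by a median absolute 2.77 points and by more than 20 points in 321 (1.36%).

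The comparison of ages asked which of these windows lose or gain methylation between early life and adulthood in control offspring. Most members kept their level, with a tail of falls down to -49.3 points and a shorter tail of rises. Of the 40536 members, 1793 fell (4.42%, against a background of 5.21% of all 86065 windows) and 638 rose (1.57%, against 7.72%) at P90, by a logistic model of the read counts with a moderated dispersion and a Benjamini-Hochberg adjusted p under 0.05. Of all calls in members, 73.8% were falls, and of the calls in all windows 40.3%. In windows above the CpG limit with the same methylation 75.9% of calls were falls, so this balance was not particular to the members. Under the methylation limit falls were 27.1% of calls in windows with as few CpGs and 21.05% in those with more. The share of members that fell was below the background, so falls were not more frequent here than elsewhere. The change had a median of 0.137 points and a mean of -0.422 points over the members, which differ in sign because the lower tail was longer: the 1st percentile was -15.7 points and the 99th was 8.77 points. Over all windows the median was 0.518 points.

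The calls depend on a spread shared over windows and on both P90 libraries. With each window's own dispersion 0 members passed in this model, and 0 of all 86065 windows. At an unadjusted p under 0.05 it had 1996 members lower and 916 higher. Over all windows edgeR called 3610 lower and 5777 higher, and limma 1887 and 3945. In members edgeR called 1445 lower and 487 higher, and limma 771 and 358. Without control P90 replicate 1 the counts were 1141 lower and 257 higher, and without replicate 2 they were 1058 and 247.

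Windows that fell went from a median of 88.9% in control P7 to 76.3% in control P90, with a median change of -11.8 points (10th to 90th percentile -19.6 to -7.00). Those that rose went from 85.8% to 94.4%, with a median change of 7.84 points (4.72 to 12.4). Falls of at least 20 points were called in 166 of the 40536 members and rises of that size in 4. Over all 86065 windows the counts were 691 and 1542, a larger share in both directions. Members at 80% or more can hardly rise that far. After the fall 1196 of the 1793 windows (66.7%) stood under 80% and 10 stood under 50%, so most remained more methylated than not. The histogram of changes shows both tails.

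**Figure D2:**
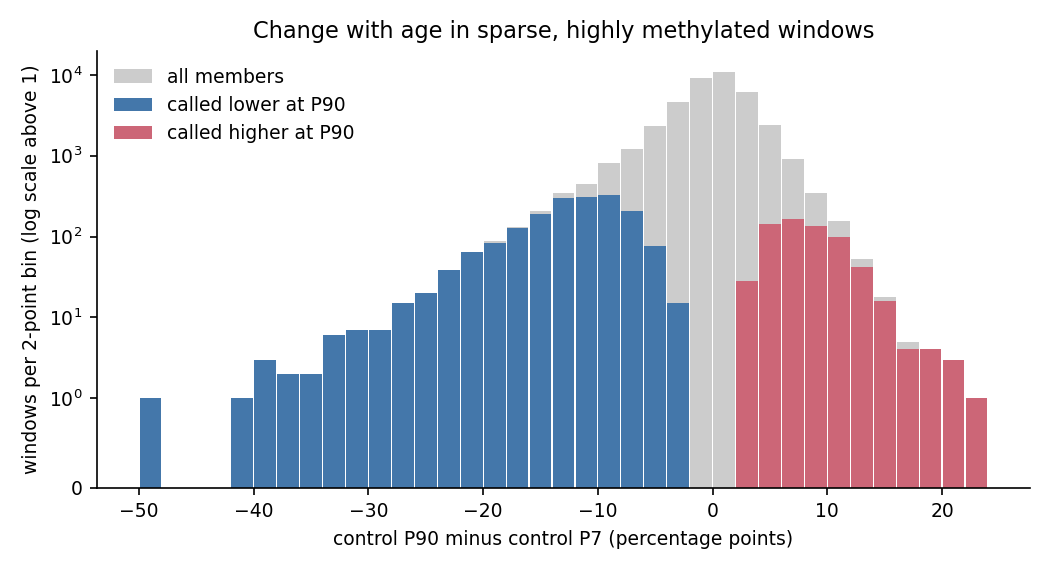
Number of member windows (log scale above 1) in each 2-point bin of the change in methylation, control P90 minus control P7, in percentage points. Grey bars are all 40536 members, blue bars those called lower (1793) and red bars those called higher (638). The lower tail reaches -49.3 points, and 1174 of the 1386 windows that changed by -10 points or further down were called.

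Library values separated the ages at most called windows. In 1691 of the 1793 windows that fell (94.3%) both control P90 libraries lay below all 4 control P7 libraries. In 597 of the 638 that rose (93.6%) they lay above the 4. The test used the same values, so this describes the calls and does not add to them. Without regard to the test, both P90 libraries lay below the 4 control P7 libraries in 4895 members (12.1%, against 12.4% of all windows) and above them in 4163 (10.3%, against 18.2%). Windows that rose also tended to have low control P7 values: control P7 was below high-fat P7 in 502 of them (78.7%), against 600 of those that fell (33.5%) and 47.2% of all members. The part of this in the rises was not tested.

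The sites of called windows are described next, and since the windows were called on the sum of these sites, most sites had to share the direction. In windows that fell, 93.5% of the 8983 sites were lower at P90, and every site was lower in 1350 windows (75.3%). In windows that rose, 93.0% of the 3282 sites were higher, and every site was higher in 459 (71.9%). A single site made up over 50% of the summed change in 317 of the windows that fell (17.7%) and in 165 of those that rose (25.9%). Reads that span several sites count at each of them, so the sites of a window are not independent. At CpGs read on both strands over all members, the change with age differed between the strands by a median absolute 3.85 points.

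The share of members called declined with their level. By high-fat P7 level, 8.43% of members at 80 to 85% fell, 5.95% at 85 to 90%, 2.95% at 90 to 95% and 1.35% at 95 to 100%. Rises went down with it, from 3.02% to 2.04%, 1.07% and 0.538%. The same order held in windows of more than 16 CpGs, where falls went from 9.34% to 8.56%, 5.03% and 1.58%. These shares were above those of the members in every level class, but such windows were also read more deeply, with a median of 163 reads in the lowest library against 88. Over members alone, split into 4 by reads in the lowest library, the share that fell went from 3.20% in the least read to 6.05% in the most read. Whether CpG number or depth separates the groups was not tested.

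**Figure D3:**
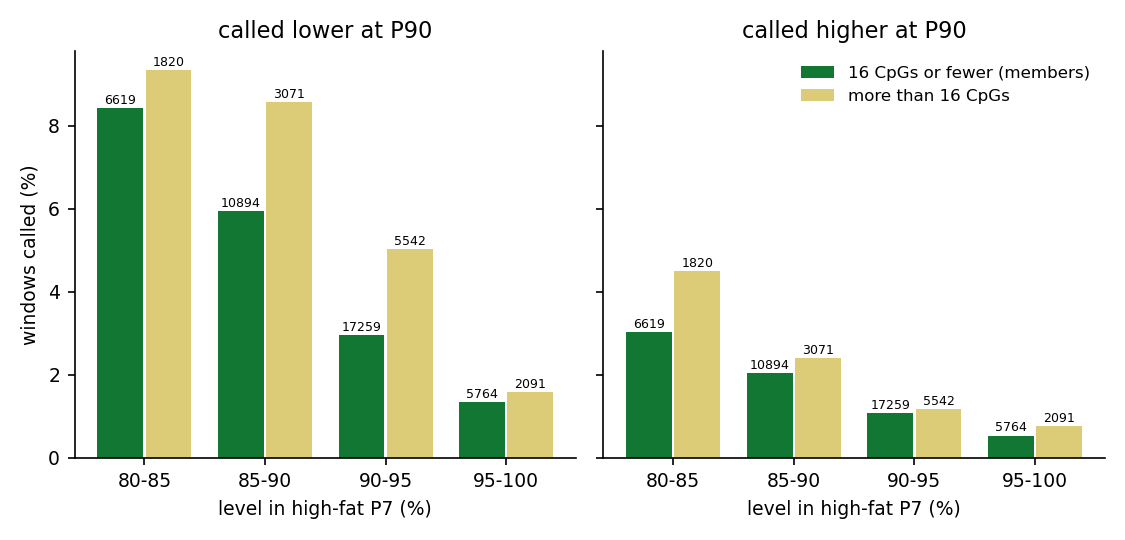
Percentage of windows called lower (left) and higher (right) at control P90 against control P7, by methylation level in high-fat P7, for members (green) and for windows of more than 16 CpGs (yellow). Numbers over the bars are windows. In both groups the share called lower declines with the level, from 8.43% to 1.35% in members.

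Within the members, the shares that fell lay closer together by number of CpGs than by level. Those with 2 to 4 listed CpGs fell in 4.07% of windows, those with 5 to 8 in 3.76%, those with 9 to 12 in 4.85% and those with 13 to 16 in 4.96%. Rises were 0.886%, 1.59%, 1.57% and 1.74%. At a high-fat P7 level of 80 to 85% the shares that fell were 5.32%, 7.79%, 9.14% and 9.27% over these classes. At 95 to 100% they were 1.77%, 1.29%, 1.47% and 1.15%. The median reads in the lowest library went up over the classes of CpG number too, from 63 to 78, 95 and 115. Whether CpG number or depth separates these classes was not tested. By chromosome, falls took from 3.35% of members on chromosome 9 to 5.99% on chromosome 10, and rises from 0.927% on chromosome 20 to 2.39% on chromosome 19. No chromosome had more rises than falls, where members at 80% or more have little room to rise. Shares over all windows were not counted by chromosome or by these classes of CpG number. Whether these orders are particular to the members was thus not tested.

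The 8 members that fell with the smallest p changed by -22.9 to -49.3 points. Windows were named here only if both P90 libraries lay outside the range of control P7, so that separation was set by the choice. The window chr1:78747001-78748000 had 8 tested sites. It stood at 83.1%, 81.4%, 84.96% and 84.8% in control P7, at 86.4%, 81.2%, 82.2% and 87.7% in high-fat P7, and at 46.6% and 43.8% in control P90. The ages did not overlap and the diets at P7 did. Its mean went from 83.6% ± 1.68 (SD, n = 4) to 45.2% ± 1.95 (SD, n = 2), a change of -38.4 points (moderated logistic model, adjusted p = 4.32e-10, from 188 to 441 reads per library). Of its sites 7 had changes of -46.3 to -29.7 points. The remaining site, 78747207 on the plus strand, had 91.1% and 86.4%. This site lies between sites that changed far more, so the window is not uniform.

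The largest fall in the group was in chr14:114540001-114541000, with 5 tested sites. Control P7 libraries had 87.9%, 78.4%, 84.3% and 76.1%, high-fat P7 libraries 81.2%, 77.2%, 80.2% and 86.6%, and control P90 libraries 34.1% and 30.7%. Both P90 values lie far below every P7 value. The mean went from 81.7% ± 5.42 (SD, n = 4) to 32.4% ± 2.41 (SD, n = 2), by -49.3 points (moderated logistic model, adjusted p = 4.32e-10). Its sites, from 114540870 to 114540940 on both strands, had changes of -52.1 to -45.9 points, so here the fall was even over the sites.

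The window chr4:78061001-78062000 started near the top of the range. It had 97.6%, 92.2%, 95.2% and 96.2% in control P7, 95.9%, 93.6%, 91.7% and 92.55% in high-fat P7, and 64.1% and 62.1% in control P90, a change of -32.2 points (moderated logistic model, adjusted p = 5.89e-10). Of its 4 sites 3 had changes of -43.8 to -32.6 points and the last, at 78061393, of -8.52 points. In chr3:175550001-175551000 control P7 had 82.2% ± 4.15 (SD, n = 4) and control P90 46.5% ± 3.23 (SD, n = 2), and its 9 sites had changes of -52.8 to -20.8 points. Both windows thus vary in the size of the change between sites and not in its direction.

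The other 4 windows changed in the same manner. In chr1:81918001-81919000 the means were 88.9% and 58.9%, and in chr1:192568001-192569000 they were 90.7% and 63.8%. The window chr12:37673001-37674000 went from 94.0% ± 3.44 (SD, n = 4) to 56.9% ± 7.09 (SD, n = 2), and its 6 sites, all on the plus strand from 37673469 to 37673532, had changes of -39.7 to -33.6 points. In chr2:252852001-252853000 the means were 92.8% and 69.9%. Here 1 of 5 sites (252852115) had 96.1% and 94.4%, and the others had changes of -28.9 to -11.6 points. In all 8 windows together, 49 of 49 sites were lower at P90. Without moderation of the dispersion none of the 8 passed (adjusted p = 0.172 in each), and with edgeR, limma and each control P7 library left out all did. The windows were chosen for their smallest p and these settings use the same reads, so this is a description. With either P90 library left out only 1 remained at P90, and the changes were -22.5 to -51.0 points.

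**Figure D4:**
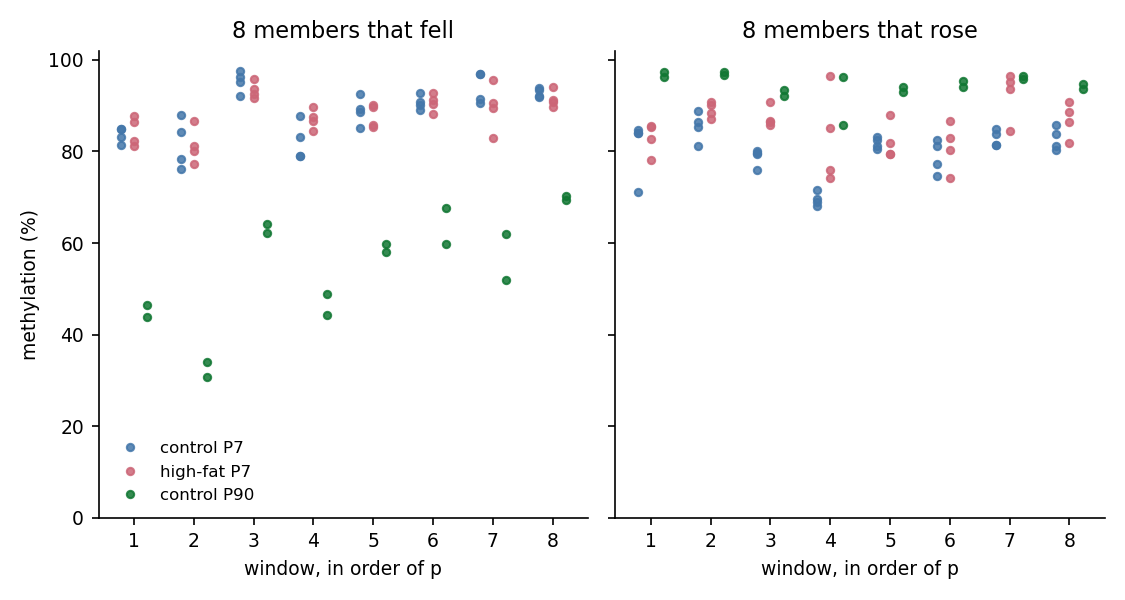
Methylation (%) per library in the 8 members that fell (left) and the 8 that rose (right) with the smallest p, numbered in order of p, on chromosomes 1, 14, 4, 3, 1, 1, 12 and 2 (left) and 13, 2, 8, 7, 8, 15, 3 and 1 (right). Blue points are control P7 (n = 4), red points high-fat P7 (n = 4) and green points control P90 replicates 1 and 2. The green points lie below the blue points on the left and above them on the right, as the choice of windows asked.

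The 8 members that rose with the smallest p gained 11.4 to 21.5 points and reached 91.1% to 97.0% at P90. The window chr13:106122001-106123000 had 84.0%, 71.2%, 84.7% and 84.0% in control P7, 82.7%, 85.45%, 78.1% and 85.6% in high-fat P7, and 96.2% and 97.4% in control P90. Control P7 replicate 2 was low there, but the other libraries at P7 were also below both P90 values. The change was 15.8 points (moderated logistic model, adjusted p = 2.79e-06), and all 6 sites were higher, by 2.53 to 22.2 points. In chr2:94582001-94583000, with 9 sites all higher, control P7 had 85.5% ± 3.15 (SD, n = 4) and control P90 97.0% ± 0.407 (SD, n = 2).

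In chr8:54806001-54807000 the diets at P7 also lay apart, as a description. The window was named for a rise from control P7, and the rule asked for 80% or more in high-fat P7. Both choices favour a control P7 value below that of high-fat P7. The share of all windows with such a separation was not counted. Control P7 had 79.6%, 76.0%, 79.5% and 80.1%, high-fat P7 86.5%, 85.8%, 86.6% and 90.9%, and control P90 93.4% and 92.2%. Control P90 exceeded both P7 groups, and high-fat P7 lay between. Its 8 sites were higher at P90 than in control P7 by 5.35 to 18.8 points (13.99 points over the window, moderated logistic model, adjusted p = 1.14e-05). The window chr8:129394001-129395000 held 10 sites, of which 9 were higher, by up to 30.3 points, and 1 had 98.8% and 98.0%. Its mean went from 81.9% ± 1.27 (SD, n = 4) to 93.6% ± 0.653 (SD, n = 2). In chr15:102041001-102042000 and chr1:173813001-173814000 all sites were higher too, and the means went from 78.9% to 94.7% and from 82.8% to 94.2%.

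Rises in 2 of the 8 windows came from 1 site each. In chr7:52216001-52217000, with 3 sites, the mean went from 69.55% ± 1.53 (SD, n = 4) to 91.1% ± 7.46 (SD, n = 2). The site 52216404 on the minus strand had 20.9%, 16.7%, 15.9% and 15.2% in control P7, 23.9%, 68.1%, 31.9% and 92.3% in high-fat P7, and 64.8% and 97.6% in control P90, while its neighbours averaged above 90% at both ages. High-fat P7 libraries spread over most of the range at this site, so the libraries differ within a group as much as between ages. This window did not pass with sites thinned to 10 reads (adjusted p = 0.0722).

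In chr3:51479001-51480000 the site 51479744 on the plus strand had 54.1%, 47.2%, 45.8% and 51.5% in control P7, 56.0%, 90.7%, 95.8% and 98.2% in high-fat P7, and 93.6% and 98.3% in control P90. All 4 control P7 libraries stood near 50%, and high-fat replicate 1 with them. The minus strand of the same CpG, 51479745, had 97.9% in control P7 and 93.6% in control P90. The strands of this CpG thus differed in the 4 control P7 libraries and in high-fat P7 replicate 1, and were close in the other 3 high-fat P7 libraries and in both control P90 libraries, from 33 to 91 reads on the plus strand. Strand differences over 20 points were rare in members, at 1.36% of CpGs read on both strands, and neither strand of this site was tested on its own.

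**Figure D5:**
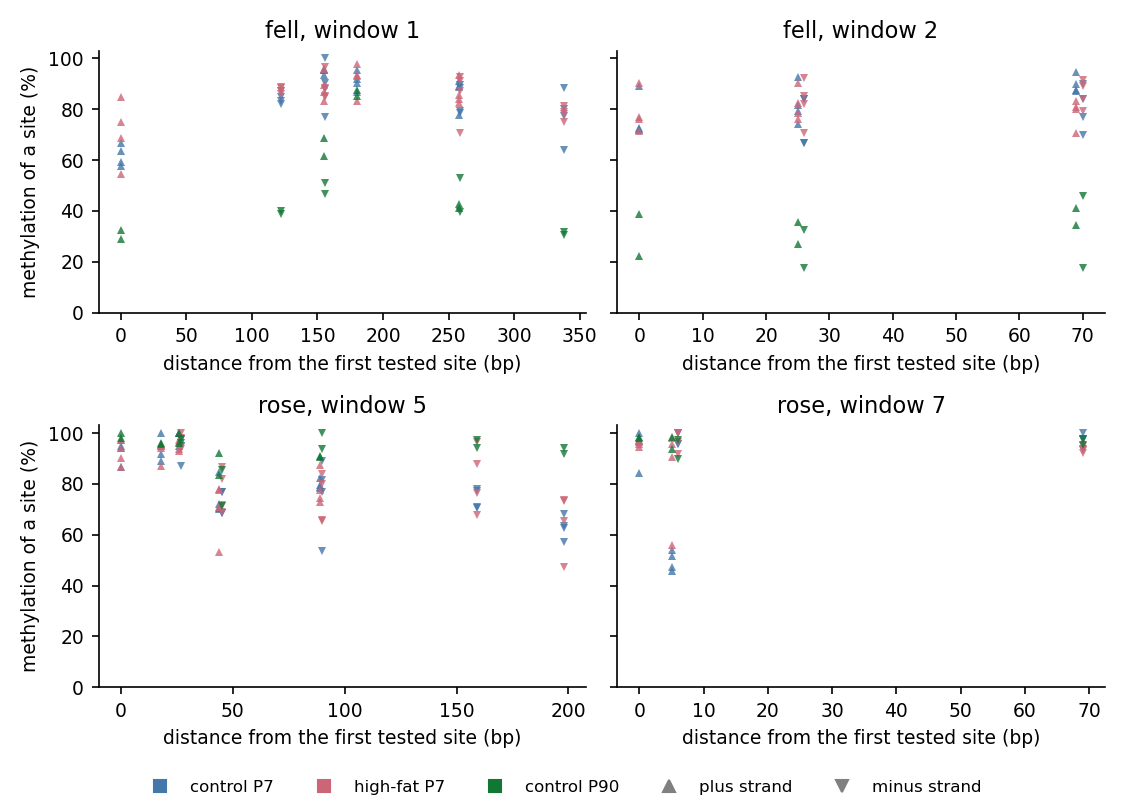
Methylation (%) of each tested site by its distance in bp from the first tested site, in the windows that fell numbered 1 and 2 and the windows that rose numbered 5 and 7 in the plot of library values. Points are libraries (blue control P7, red high-fat P7, green control P90 replicates 1 and 2) and triangles point up for the plus and down for the minus strand. Green points lie low over nearly all sites of the windows that fell, and in the rising window 7 the blue points lie near 50% at 1 site only.

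Few members had a neighbour to compare with. There were 2205 pairs of adjacent members among the 40536, and both fell in 24, both rose in 1 and they went opposite ways in 3. Of 226 neighbours of a window that fell, 48 also fell (21.2%, against 4.42% of all members and 5.21% of all windows) and 3 rose. The 48 are the windows of the 24 pairs, each counted as the neighbour of the other. The median change of the 226 neighbours was -2.12 points, against 0.137 points in all members. How many pairs are a single stretch cut by a window border was not analysed, and neighbours over all windows were not counted. No run of called windows was longer than 2. In the pair of falls with the smallest p, chr6:52226001-52227000 went from 96.9% ± 1.47 (SD, n = 4) to 87.15% ± 1.20 (SD, n = 2), and chr6:52227001-52228000 from 89.8% ± 3.49 to 68.75% ± 10.1. Its tested sites lie on both sides of the window border, from 52226921 to 52227072, so the pair is 1 stretch cut by the border. The pair of rises, chr10:4869001-4870000 and chr10:4870001-4871000, gained 8.71 and 10.1 points (moderated logistic model, adjusted p = 0.0432 and 0.0438).

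The member with the most tested sites showed no call. The window chr6:48874001-48875000 had 16 sites, with 85.7% ± 5.38 (SD, n = 4) in control P7 and 83.1% ± 1.82 (SD, n = 2) in control P90 (moderated logistic model, adjusted p = 0.493). Control P7 replicate 4 stood at 78.0% and the other 3 at 86.8% to 90.3%, so the change of -2.65 points is smaller than the spread between P7 libraries.

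The diets were close at P7 in most members, as a description, since the high-fat values chose them. High-fat minus control had a median of -0.133 points and an SD of 2.33 points over the members, against -0.298 and 2.96 over all windows. High-fat was lower by at least 10 points in 15 of the 40536 members and higher by at least 10 in 45. Over all 86065 windows the counts were 406 and 277, a larger share in both directions. A window could enter with a low control value but not with a low high-fat value, so these counts are shaped by the rule. The members at either end had large spreads between libraries. In chr4:112780001-112781000 control P7 had 100%, 100%, 94.0% and 95.8% and high-fat P7 95.2%, 95.6%, 71.9% and 65.6%, where the site 112780402 had 92.9%, 93.3%, 21.1% and 22.7% in the high-fat libraries. In chr5:64012001-64013000 the site 64012008 had 6.45%, 62.5%, 100% and 44.8% in high-fat P7, 93.3% to 96.8% in control P7 and 55.6% and 46.3% in control P90. Both windows thus turned on 1 site that differed among the high-fat libraries.

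At the upper end the diets did not overlap in 1 of 2 windows. The window chr3:166459001-166460000 had 41.7%, 38.3%, 61.7% and 54.3% in control P7 and 73.5%, 84.1%, 80.6% and 84.5% in high-fat P7, a difference of 31.7 points. Control P90 had 71.0% and 51.3% there, the first between the ranges of the diets and the second within that of control P7. In chr14:18004001-18005000 control P7 had 45.45%, 54.1%, 72.9% and 71.5% and high-fat P7 85.8%, 84.0%, 83.8% and 70.1%, with control P90 at 83.6% and 84.55%. High-fat replicate 4 lies inside the control range in this window.

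The 6 lane-titled libraries gave other values at the members they read. They read 2080 to 11209 members at 3 or more of the tested sites with at least 10 reads each, and their median member stood at 99.8% to 100%. A level of 99% or more was found in 64.7% to 85.7% of the members read, against 0.402% to 0.640% of the same members in control P90 replicate 1. Levels under 80% were found in 6.14% to 11.0%, against 6.70% to 8.08% of the same members in that library. These libraries thus had most members at the top of the scale and kept a lower tail. Over windows called lower in the tested libraries, control P90 replicate 3 read 651 and had a mean of 87.1%, against 94.2% over all members it read. Control P90 replicates 1 and 2 had 77.1% in the same 651 windows and control P7 88.7%. In the 5 other lane-titled libraries the mean over called-lower windows was 90.2% to 94.2%, against 95.7% to 97.1% over all members they read. In each of them it was the lower of both means. Control P7 had 88.7% to 89.3% in the same called-lower windows, against 90.6% to 90.8% in the same members. None of the 6 had a mean as low in called-lower windows as replicates 1 and 2. These windows were called on the low values of replicates 1 and 2, so that order was set by the choice.

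At the windows named above the lane-titled libraries were split. In chr1:78747001-78748000 control P90 replicate 3 had 53.5%, near replicates 1 and 2. In chr3:175550001-175551000 it had 57.9% and high-fat P90 replicate 1 had 67.0%. In chr12:37673001-37674000 the 3 that read the window had 83.8%, 97.0% and 82.4%, and in chr1:192568001-192569000 the 1 that did had 100%. All 6 read 53 members in common. Mean methylation there was 94.7% and 95.5% in the control libraries and 93.4%, 91.6%, 93.0% and 91.7% in the high-fat libraries. High-fat minus control had a median of -0.722 points with a range of -43.6 to 24.3 points, and was not tested. Diet at P90 in these windows rests on these 53 and on libraries that stand apart.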

How the data were processed

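Per the labels' protocols, libraries for reduced representation bisulfite sequencing came from an Ovation RRBS kit. The deposited files give methylated and unmethylated read counts per CpG cytosine and strand, without normalization, on Rnor_6.0 according to the submitters' processing notes. For the aligner's settings and the counting program the sources used here give nothing. Each listed site had at least 1 methylated read in all 16 files, so a site wholly without methylation in a library is missing there. A further numeric column was not used.

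Sites with at least 10 reads in all 10 libraries without a lane in the title were kept, and their reads were summed in 1 kb windows holding at least 3. The members, lists and named windows were chosen with earlier results of these data known. Per window, a logistic model of the counts was tested by a two-sided F test on the deviance (4 residual degrees of freedom). The Pearson dispersion was moderated over windows with limma 3.58.1 (median prior degrees of freedom 37.5) and kept at 1 or above, so p-values rest mostly on a spread shared over windows of like coverage and level. P-values were adjusted by Benjamini-Hochberg over all 86065 windows at 0.05. Named windows were, in each direction, the 8 of smallest p whose P90 libraries both lay outside the control P7 range, the longest runs, those at the limits, the 2 largest diet differences each way and the member with the most sites.

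Alternatives were a minimum of 20 reads, an upper limit at the 99.9th percentile of coverage, 5 sites per window, edgeR 4.0.16, limma on log2 ratios of counts plus 1, unmoderated dispersion, thinning to 10 reads, windows shifted by 500 bp, limits of 85% or 12 CpGs, a replicate block, each library left out in turn and a minimum difference of 10 points. Python 3.11.15 and R 4.3.3 were used. Gene annotation and genome sequence of the build were not used here, so no gene is named. The counts are of reads, and several reads can come from 1 molecule.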

Additional observations from a re-analysis of the deposited data

Results flagged for a closer look

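Of 60 groups of 4 libraries at the named windows, 4 held a library far from the other 3, with a gap to its nearest neighbour that is too large a part of the group's range by Dixon's test. Chance would give about 1 in 20 groups of values that played no part in the choice. The windows were named on these same values, so 4 of 60 cannot be set against that rate. The high-fat P7 values chose the windows, so the flags on them are a description and not a test result. In chr13:106122001-106123000, control P7 replicate 2 had 71.2%, where the nearest library had 84.0%. In chr8:54806001-54807000, control P7 replicate 2 had 76.0% (nearest 79.5%) and high-fat P7 replicate 4 had 90.9% (nearest 86.6%). In chr14:18004001-18005000, high-fat P7 replicate 4 had 70.1%, where the nearest had 83.8%. Both rising windows passed without control P7 replicate 2.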

How the results depend on the processing

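No tested result reversed, and the untested median diet difference, -0.133 points, was 0.0643 points without high-fat P7 replicate 3. Against 2431 calls (1793 lower, 638 higher) in the age comparison, the counts moved by over 1.5 times with at least 20 reads per site (1279: 943 lower, 336 higher, of 19409 members left), at least 5 sites per window (1247: 900 and 347, of 15803 members), limma (1129: 771 and 358), thinning to 10 reads (685: 546 and 139) and a minimum difference of 10 points (1343: 1174 and 169). Each window's own dispersion with 4 residual degrees of freedom gave 0 (0 lower and 0 higher), in members and in all windows. Over all windows the calls were 2564 lower and 4710 higher of 46847 with at least 20 reads per site. They were 2736 and 4122 of 42598 with at least 5 sites, and 1537 and 2637 of 86065 with thinning. With a minimum difference of 10 points they were 3332 and 5375. Leaving out 1 library gave 1305 to 2167 calls, 1058 to 1659 lower and 247 to 602 higher. Calls were within 1.5 times with edgeR, an upper limit on coverage, shifted windows and the other limits of the rule. The share of falls among calls ran from 68.3% to 87.4% over the settings with calls. The median age change ran from 0.0352 to 0.268 points and the median diet difference from -0.319 to 0.0643 points when 1 library was left out, all within the spread between libraries. The 16 windows named for their smallest p passed in each setting that kept both P90 libraries, except all 16 with unmoderated dispersion and 1 with thinning. Of the windows that fell, 4 were not tested at 20 reads. With 1 P90 library left, the changes of all 16 kept their direction. These windows were chosen for their p and each setting uses the same reads, so their passing is a description. The title numbers 3 and 4 occur at both ages, and the labels do not say what they mark. The difference between these numbers at P7 and that at P90 had an r of -0.0421 over windows. A single difference per age, with the sampling noise of the reads in it, cannot show whether they are pairs. The main fit did not take these title numbers as pairs. With these numbers as a replicate block 1372 members were called (1031 lower, 341 higher), and over all windows 2454 lower and 3724 higher. Depth limits single sites, where 10 reads give steps of 10 points. The cause of these changes was not tested, other than fewer windows, sites or reads where the setting leaves them.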

Other observations

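Members that fell were also counted along the genome, with no test. Of 2595 bins of 1000000 bp that held a member (median 12 members), 1606 held no member that fell. The bin with the most, chosen after the values were seen, was on chromosome 5 from 166000001 to 167000000, where 10 of 45 members fell (22.2%, against 4.42% of all members and 5.21% of all windows) and 1 rose. These 10 lie over 863000 bp, had changes of -22.8 to -7.77 points and went from a median of 84.6% to 73.3%, while the other 35 members of the bin had a median change of -0.506 points. On chromosome 12 the bins from 37000001 and from 40000001 held 9 of 61 (14.8%) and 8 of 50 (16.0%) members that fell.

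Sites that lost all methylated reads would be unlisted at P90. Of 186089 member sites read at least 10 times in all 8 P7 libraries, 16 (0.00860%) were unlisted in both control P90 libraries, and 4 of these had a P7 mean of 80% or more. Another 143 were unlisted in 1 of the P90 libraries. Complete loss and missing reads cannot be told apart there.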
